A study of Rattus norvegicus with 6 samples.

Results

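The 86 genes described here encode the proteins of the cytoplasmic ribosome, 51 of the large subunit and 35 of the small subunit, out of 33565 rows in the deposited gene tables. They were chosen by name: protein-coding rows called Rpl or Rps with a number and at most a short suffix, plus Rplp0, Rplp1, Rplp2, Rpsa and Fau, with 1 row kept per symbol. The cells were primary cardiomyocytes from the hearts of 7-day-old Sprague-Dawley (SD) rats, grown in DMEM that held 10% fetal bovine serum, under 5% CO2. One group (control, 3 libraries) received vehicle and the other (progesterone, 3 libraries) received progesterone, a steroid hormone, at 100 nM, both for 24 h. The labels call the libraries biological replicates without saying whether they came from separate animals or separate dishes, so p-values measure the spread between these libraries. The series title places the comparison in a study of progesterone, YAP and cardiomyocyte proliferation.

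Each cytoplasmic ribosome joins a small subunit, which reads the messenger RNA, to a large subunit, which forms the peptide bonds, and each subunit is built from ribosomal RNA and a fixed set of proteins used in near-equal numbers. The mRNAs of these proteins begin with a terminal oligopyrimidine (TOP) stretch, a C at the first base followed by a run of C and T. Through this stretch mTORC1 and the RNA-binding protein Larp1 set how many of these mRNAs are on polysomes, a layer that total mRNA counts do not show. Enlarging heart muscle cells make more ribosomes.

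To show the sequence feature that marks these genes, the 40 bases before and the 20 bases from the RefSeq start (GRCr8) are given for 6 members that hold a pyrimidine stretch there and 3 that do not. Capitals mark a C within 5 bases of the start and the unbroken C and T run after it, where that run is at least 4 bases long. The first 5 and Rplp0 differ in their response, described further on. The last 3 are paralogues, duplicate genes that encode a closely related protein.
Rpl23 (chr10:83272165-83272224, minus strand): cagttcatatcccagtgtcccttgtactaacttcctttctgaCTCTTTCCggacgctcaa
Rpl27a (chr1:172974533-172974592, plus strand): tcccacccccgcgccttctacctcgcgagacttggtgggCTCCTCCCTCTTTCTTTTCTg
Rpl31 (chr9:49143071-49143130, plus strand): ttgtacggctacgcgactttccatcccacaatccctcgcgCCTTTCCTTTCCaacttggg
Rplp1 (chr8:71290853-71290912, minus strand): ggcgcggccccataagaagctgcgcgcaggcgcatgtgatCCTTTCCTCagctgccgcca
Rps21 (chr3:187723998-187724057, plus strand): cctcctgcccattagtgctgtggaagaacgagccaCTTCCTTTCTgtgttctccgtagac
Rplp0 (chr12:46718371-46718430, minus strand): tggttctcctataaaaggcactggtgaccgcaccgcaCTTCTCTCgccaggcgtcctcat
Rpl22l1 (chr2:113683156-113683215, plus strand): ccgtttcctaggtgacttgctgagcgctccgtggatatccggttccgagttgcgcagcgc
Rps27l (chr8:76443618-76443677, plus strand): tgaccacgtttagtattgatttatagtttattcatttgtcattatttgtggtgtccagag
Rpl3l (chr10:14258406-14258465, plus strand): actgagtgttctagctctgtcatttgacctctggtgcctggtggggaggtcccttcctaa

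Of the 86 genes, 65 matched a single RefSeq promoter by symbol, and 38 of these (58.5%) held the stretch, against 17.0% of all 33469 promoters searched in the same way on the sense strand. With the C exactly at the annotated start, the shares were 33.8% and 2.63%. CCGGAA, searched on both strands of the 300-base window from 250 bases before to 50 bases after the start, was in 49.2% of the 65 promoters and 15.0% of all. AAGATGGC was in 10.8% and 3.17%, and CTTTCC, which can lie inside the pyrimidine stretch, in 47.7% and 26.4%, both on both strands. Of the 35 tested genes with a stretch, 28 were higher after progesterone (median log2 fold change 0.23). Of the 24 tested genes without a stretch, 16 were higher (median 0.27), where 31.2% of all genes tested were called higher. Some of these 24 hold a C and T run that the search did not count. The run of Rps2 ends on the annotated start, and those of Rps3, Rpl13a and Rpl21 lie just before it. The split is thus by a match at the annotated start, and does not separate TOP mRNAs from others. Promoters were matched to rows by symbol only. For Rpl9, Rpl35a and Rpl36a, all with a stretch, the promoter lies on chromosome 14, 11 and X and the row tested on chromosome 1, 6 and 10. The calls of those rows may thus not belong to these starts. A match describes letters in this window only.

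Ribosomal protein mRNA made up a larger share of the libraries after progesterone. The 86 genes took 3.19%, 2.97% and 2.90% of the counts on named genes in control libraries 1, 2 and 3, and 3.67%, 3.63% and 3.54% in progesterone libraries 1, 2 and 3. The groups did not overlap, and the mean went from 3.02% ± 0.152 (SD, n = 3) to 3.62% ± 0.0646 (SD, n = 3). The large subunit went from 1.77% ± 0.0735 to 2.11% ± 0.0276 and the small subunit from 1.25% ± 0.0803 to 1.51% ± 0.0385 (SD, n = 3 each). These shares are proportions of each library, so they do not say whether a cell held more ribosomal protein mRNA, and in bulk samples a change in the mix of cells and a change in RNA per cell cannot be told apart.

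**Figure D1:**
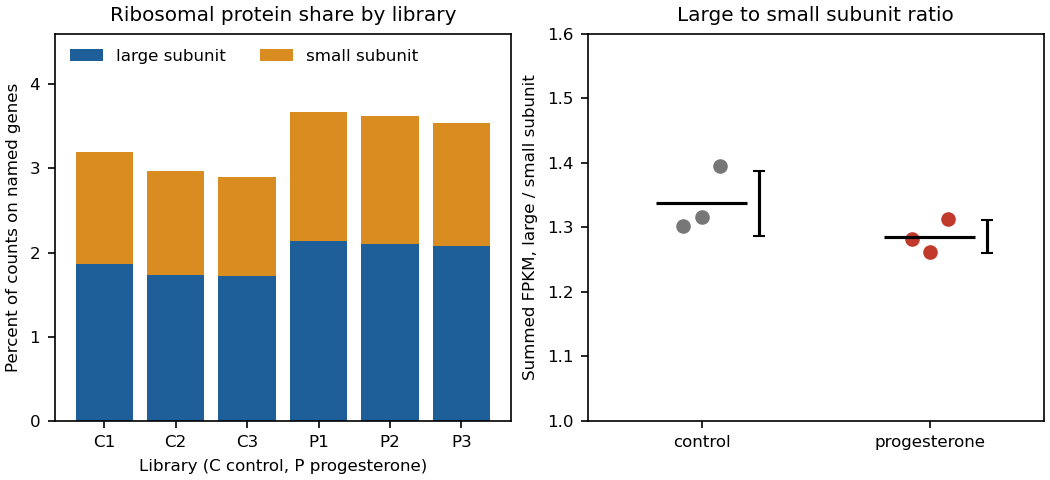
Left, percent of the counts on named genes that fell on ribosomal protein genes in each library, stacked by subunit. Right, summed FPKM of the large subunit genes divided by that of the small subunit genes, with a point per library, the mean as a line and the SD (n = 3) beside it. The progesterone libraries lie between 3.54% and 3.67% against 2.90% to 3.19% in control, while the ratios of the groups overlap.

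The balance of the subunits was read from their summed levels. The ratio of summed FPKM, a length-corrected level, of large to small subunit genes was 1.30, 1.32 and 1.39 in the control libraries and 1.28, 1.26 and 1.31 in the progesterone libraries. The groups overlapped, with means of 1.34 ± 0.0501 and 1.29 ± 0.0251 (SD, n = 3 each). The sums use only the row kept for each symbol. Of the members, 17 large and 9 small ones had over 5% of their protein's counts on other rows or no count. The kept row of Rps27a, for example, had 973, 594 and 291 FPKM in control and 934, 1057 and 360 FPKM in progesterone libraries. The ratio thus also follows how reads were spread over rows. Among the controls, library 1 had the highest and library 3 the lowest share of counts for both subunits.

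The filter on low counts left 79 of the 86 genes to test, 44 of the large and 35 of the small subunit. By edgeR's quasi-likelihood test at a Benjamini-Hochberg adjusted p under 0.05, 59 were higher and 3 lower after progesterone, and 17 did not pass. Over all 15075 genes tested the share called was 63%, with 31.2% higher and 31.8% lower. Among large subunit genes 34 were higher, 2 lower and 8 did not pass, and among small subunit genes 25 were higher, 1 was lower and 9 did not pass. The median log2 fold change was 0.27 for the large and 0.30 for the small subunit, against 0.00 over all genes tested. These directions are relative to the other genes: when the libraries were scaled to the summed ribosomal protein counts instead, which moved the median of all genes to -0.27, the large subunit median turned to -0.0030 and the small subunit median was 0.021.

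The shift was shallow and narrow. Of the 79 tested genes, only Rps19 and Rps21 were at least 1.5-fold higher, and Rps19 did not pass the test. The middle of the distribution ran from a log2 fold change of 0.15 to 0.35, where the same quartiles over all genes tested were -0.37 and 0.32. Among the 59 genes called higher the fold change ran from 1.09 to 1.55. Of the 60 tested genes with a mean of at least 100 CPM (counts relative to the library's total as scaled by TMM), 51 were higher and 0 lower. Over all genes tested, at any level, 31.2% were higher and 31.8% lower. The share called among all genes of at least 100 CPM is not reported here, and it may differ from that over all levels. The CPM of 59 tested genes were higher in every progesterone library than in every control library, those of 4 were lower in every one, and those of 16 overlapped. Of all genes tested 68.6% separated, 33.8% upward and 34.8% downward. Leaving out each library in turn, 53 of the 62 calls were made in every fit. The 9 others were Rpl8, Rpl17, Rpl32, Rpl39l, Rps2, Rps15a, Rps18, Rps27 and Rps29.

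**Figure D2:**
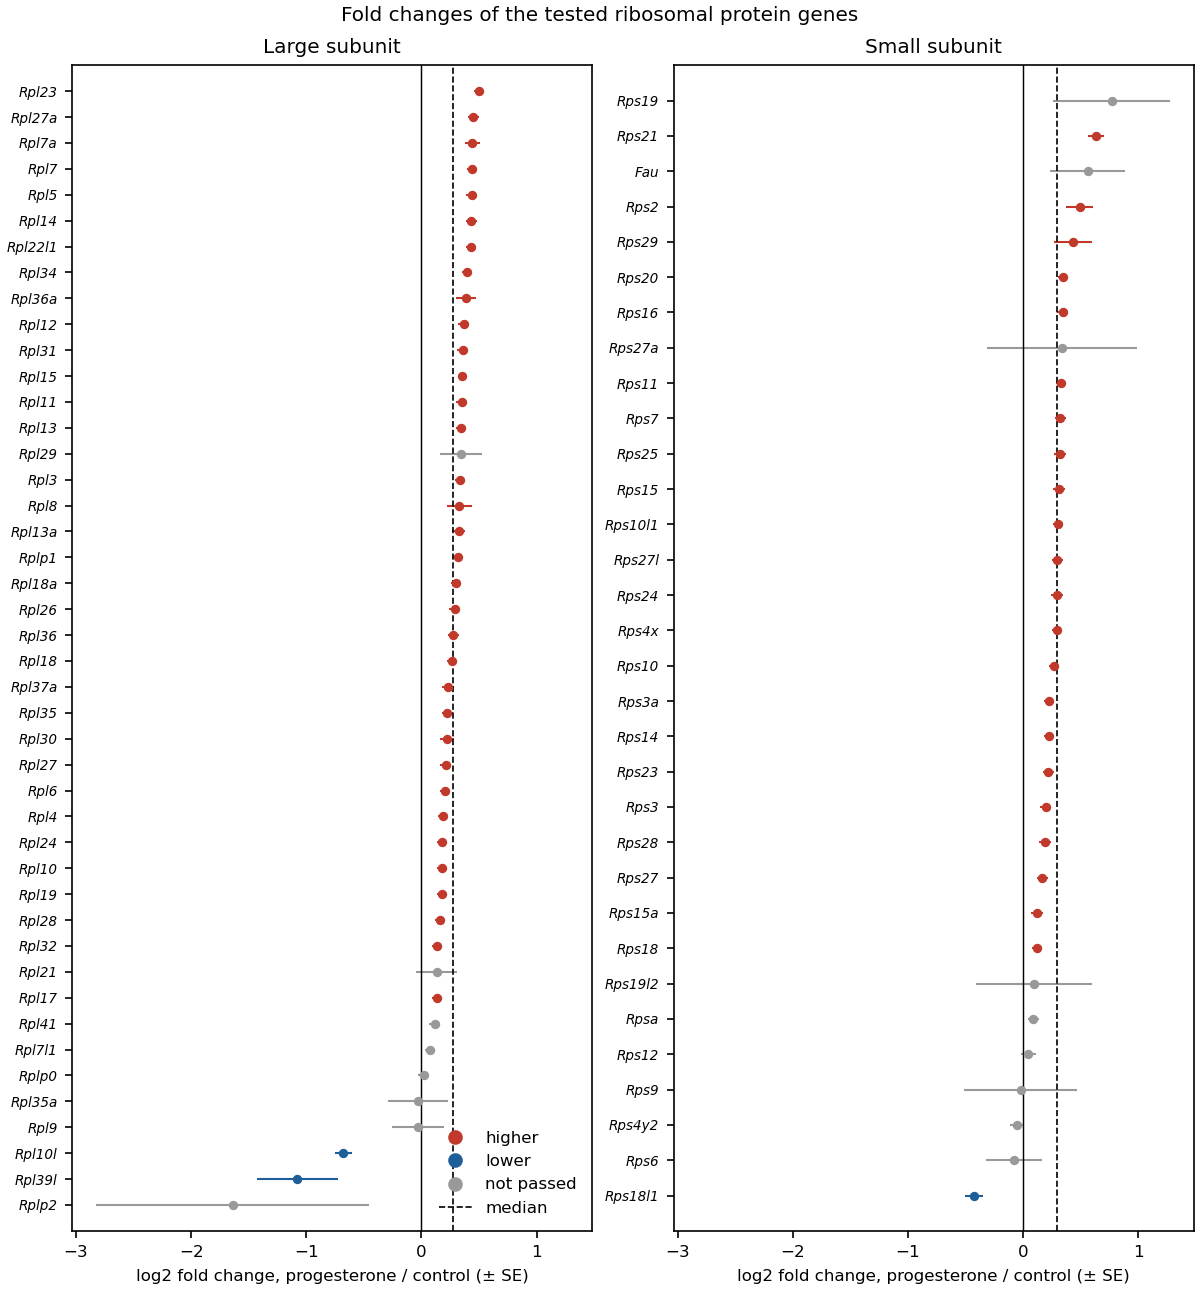
log2 fold change, progesterone over control, with its standard error from edgeR on TMM-scaled counts for 76 of the 79 tested genes, large subunit left and small subunit right. Most lie between 0.1 and 0.5, around the dashed medians of the tested large and small subunit genes, 0.27 and 0.30, and the widest bars are those of Rplp2, Rps27a, Rps19, Rps19l2 and Rps9. Scaled to the summed ribosomal protein counts, the large subunit median becomes -0.0030.

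The protein stalk of the large subunit, which recruits elongation factors, gave unlike values for its 3 genes. Rplp0 (ENSRNOG00000001148), its base and a common reference gene in quantitative PCR, had the highest length-corrected level of any member, with a mean of 1595 FPKM over the 6 libraries. It had 1811, 1687 and 1722 CPM in control and 1801, 1805 and 1681 CPM in progesterone libraries. The groups overlapped fully, and the log2 fold change was 0.02 (SE 0.05, adjusted p = 0.748). With upper quartile scaling, which raised the median of all genes by 0.10, Rplp0 passed at 0.11 (adjusted p = 0.0357). Rplp1 (ENSRNOG00000013874), which pairs with Rplp2 on the stalk, had 677, 627 and 655 CPM in control and 835, 839 and 764 CPM in progesterone libraries, without overlap. Its log2 fold change was 0.32 (SE 0.05, adjusted p = 3.06e-05). Relative to the summed ribosomal protein counts, Rplp0 was lower by a log2 fold change of -0.26 (adjusted p = 2.18e-04).

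Rpl5 and Rpl11 carry 5S ribosomal RNA into the large subunit and, when free of ribosomes, bind Mdm2 and stabilise p53, and Rpl23 also binds Mdm2. All 3 rose. Rpl23 (ENSRNOG00000004107), whose start holds the stretch CTCTTTCC shown above, had 366, 341 and 335 CPM in control and 497, 488 and 486 CPM in progesterone libraries. Every progesterone library stood well above the highest control library, and the log2 fold change of 0.50 (SE 0.04, adjusted p = 7.99e-08) was the highest of the large subunit. Rpl5 had 632, 581 and 573 CPM against 809, 822 and 787 CPM, a log2 fold change of 0.44 (SE 0.05, adjusted p = 6.16e-07). Rpl11 followed at 0.35 (SE 0.04, adjusted p = 4.67e-06).

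Other large subunit genes near the top were Rpl27a, Rpl7a, Rpl7 and Rpl14. Rpl27a, a core protein with the longest pyrimidine run among the large subunit starts printed, had 587, 547 and 524 CPM in control and 770, 749 and 747 CPM in progesterone libraries, a log2 fold change of 0.45 (SE 0.05, adjusted p = 4.73e-07). Rpl7 had 729, 698 and 674 CPM against 974, 943 and 931 CPM (log2 fold change 0.44, SE 0.04). Neither gene's groups overlapped. The row named Rpl7 is 5151 bases long, against a median of 639 bases over the members, so its FPKM understates it beside the others. Rpl7a had 40.5, 39.5 and 41.5 CPM against 55.8, 49.2 and 60.1 CPM on the row used, while 72.4% of the counts described as this protein lay on other rows.

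The tested genes of the peptide exit tunnel, through which the new chain leaves, rose as well. Of its 9 listed genes, 6 were tested and all 6 were higher (median log2 fold change 0.21), beside 31.2% of all genes tested. Rpl31 was highest at 0.36, with 351, 322 and 322 CPM in control and 424, 438 and 414 CPM in progesterone libraries. Rpl26 followed at 0.29, Rpl35 at 0.23, Rpl4 at 0.19, Rpl19 at 0.18 and Rpl17 at 0.13. The listed genes not tested under their names did not all rise. A row described as L22-like, LOC100360057, did not pass by edgeR (0.07, adjusted p = 0.279). With all rows of the protein summed, Rpl23a did not pass (-0.07, adjusted p = 0.926) and Rpl39 was higher (0.33, adjusted p = 4.41e-04). The call of Rpl17 was lost without control replicate 2 (adjusted p = 0.0969) and without progesterone replicate 2 (adjusted p = 0.0644). Rpl41, the shortest ribosomal protein and the second most abundant member per length at 1559 FPKM, had 717, 651 and 630 CPM against 716, 733 and 714 CPM. Control library 1 reached into the progesterone range, and the log2 fold change of 0.11 (SE 0.05) missed the threshold (adjusted p = 0.0525), but passed without that library (0.17, adjusted p = 0.0037).

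**Figure D3:**
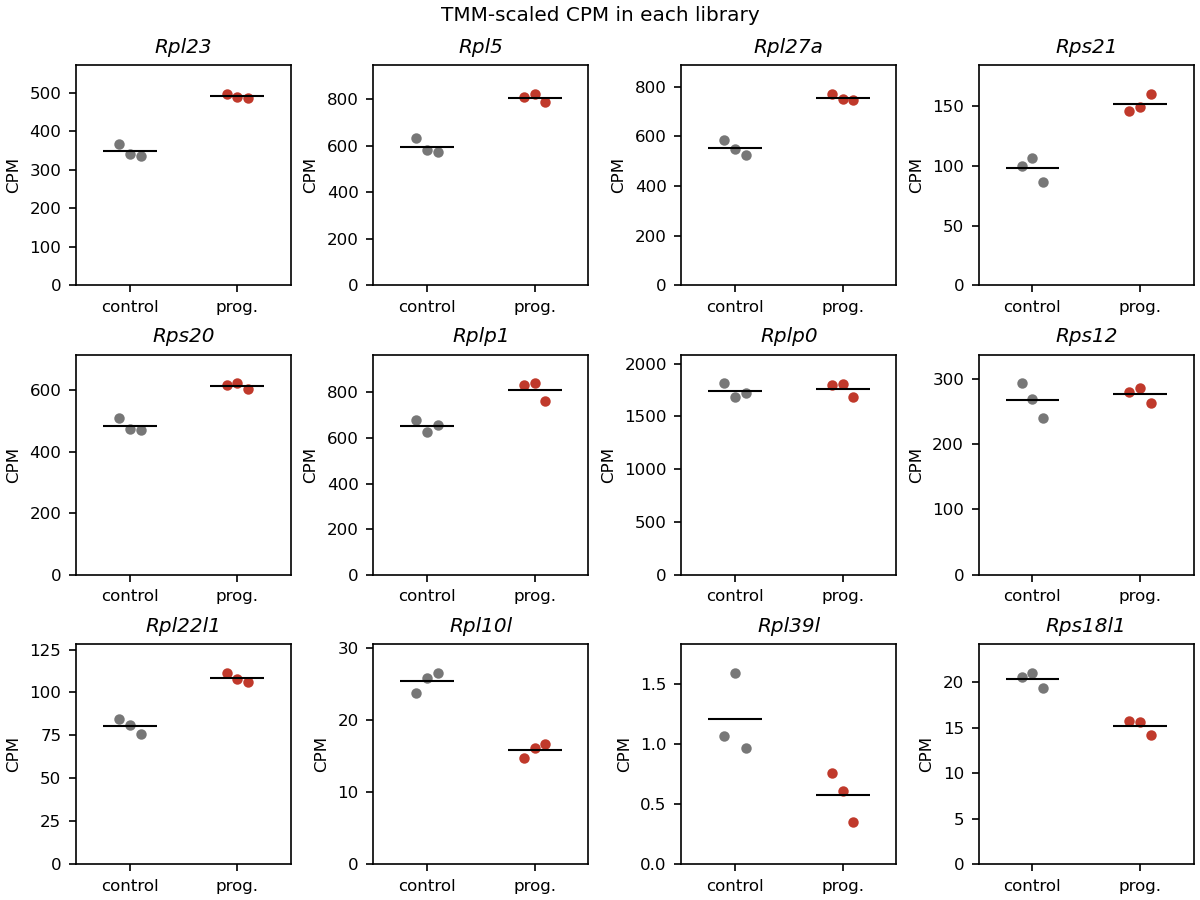
TMM-scaled CPM of 12 ribosomal protein genes in the 3 control and 3 progesterone libraries, each point a library and each line a group mean, with every axis starting at 0. Rpl23, Rpl5, Rpl27a, Rps21, Rps20, Rplp1 and Rpl22l1 separate upward, Rpl10l, Rpl39l and Rps18l1 downward, and Rplp0 and Rps12 overlap. Relative to the summed ribosomal protein counts, Rplp0 and Rps12 have negative log2 fold changes of -0.26 and -0.23.

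In the small subunit, Rps21 (ENSRNOG00000060449), a small protein on its solvent side, had the highest fold change among genes that passed. It had 100.2, 107 and 86.7 CPM in control and 146, 149.7 and 161 CPM in progesterone libraries. The groups were far apart, with a log2 fold change of 0.63 (SE 0.07, adjusted p = 2.24e-05), a fold change of 1.55. Rps20, the most abundant small subunit member per length at 1534 FPKM, had 510, 474 and 471 CPM against 618, 622 and 605 CPM. It too separated fully, and rose by 0.34 (SE 0.04, adjusted p = 4.71e-06), and Rps15, next in that order at 1096 FPKM, by 0.31 (SE 0.05).

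Around the mRNA entry and exit of the small subunit, 5 of 7 tested genes were higher (median 0.22), beside 31.2% of all genes tested. Rps2, at the entry, had 753, 748 and 675 CPM in control and 1194, 924 and 940 CPM in progesterone libraries. Progesterone library 1 stood above the other two, and the call (log2 fold change 0.49, SE 0.12, adjusted p = 0.0138) was lost without control replicate 1 (adjusted p = 0.0532) and without control replicate 3 (adjusted p = 0.0766). Rpsa, also known as the laminin receptor, had 1020, 939 and 946 CPM against 1017, 1080 and 995 CPM. Its groups overlapped through control library 1, and 0.09 (SE 0.05, adjusted p = 0.107) did not pass, while without that library it did (0.13, adjusted p = 0.0289). Rps12 had 293, 269 and 240 CPM against 280, 285 and 263 CPM and did not pass (0.04, SE 0.07, adjusted p = 0.573).

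At the decoding centre, Rps15 and Rps23 rose, by 0.31 and 0.22. Rps23 had 404, 404 and 351 CPM in control and 446, 454 and 451 CPM in progesterone libraries. The third gene of that list, Rps27a, encodes ubiquitin fused to a ribosomal protein and is taken up below with the other split genes.

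Diamond-Blackfan anaemia is an inherited failure of red cell production caused by loss of 1 copy of a ribosomal protein gene, and 19 such genes were listed. Of the 18 tested, 16 were higher and 0 lower (median 0.29), beside 31.2% and 31.8% of all genes tested. Among those that passed, Rpl5 (0.44) and Rps29 (0.43) were highest and Rps15a (0.12) lowest. Rps29 rested on few reads of its own row, at 2.91, 3.35 and 3.24 CPM against 4.55, 4.38 and 3.90 CPM, and its call was lost in 5 of the 6 fits that each left out 1 library (adjusted p from 0.0525 to 0.102, all but the one without progesterone replicate 3). Rps15a lost its call in 4 of those fits (adjusted p from 0.123 without control replicate 2 to 0.219 without control replicate 3, and 0.133 and 0.153 without progesterone replicates 2 and 3). Rps19, the gene most often mutated in this disease, had 192, 62.0 and 83.9 CPM in control and 155, 214 and 209 CPM in progesterone libraries. Control library 1 lay among the progesterone libraries, the log2 fold change of 0.77 had an SE of 0.51, and it passed only without that library (1.40, adjusted p = 0.0182). Rps27 lost its call without control replicate 2 (0.13, adjusted p = 0.056), and Rps28 was higher by 0.19.

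The 3 members that fell were all paralogue rows with low counts. Rpl10l (ENSRNOG00000032720), an autosomal copy of the X-linked Rpl10 that is best known from the testis, had 23.8, 25.9 and 26.6 CPM in control and 14.8, 16.1 and 16.7 CPM in progesterone libraries. The groups separated completely, with a log2 fold change of -0.68 (SE 0.08, adjusted p = 1.39e-06). Its parent Rpl10 went the other way, at 853, 798 and 786 CPM against 903, 966 and 890.5 CPM (0.18, SE 0.05, adjusted p = 0.00352). Rps18l1 had 20.6, 21.0 and 19.3 CPM against 15.7, 15.6 and 14.2 CPM, a log2 fold change of -0.42 (SE 0.08, adjusted p = 2.08e-04), where Rps18 itself was higher by 0.12 (SE 0.04, adjusted p = 0.0303). That call of Rps18 was lost in 5 of the 6 fits with 1 library left out, all but the one without control replicate 1 (adjusted p from 0.0552 to 0.142). Rpl39l, also known from the testis, rested on 123 counts in all, at 1.06, 1.59 and 0.963 CPM against 0.758, 0.612 and 0.346 CPM. Its log2 fold change of -1.08 (SE 0.35, adjusted p = 0.0138) did not pass without control replicate 2 (adjusted p = 0.0866) or without progesterone replicate 3 (adjusted p = 0.0735).

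Other paralogues rose with the pool. Rpl22l1, the stand-in for Rpl22, had 84.3, 80.9 and 76.0 CPM in control and 111, 108 and 106 CPM in progesterone libraries, a log2 fold change of 0.43 (SE 0.05, adjusted p = 1.04e-06). Rps27l, a p53 target related to Rps27, had 79.1, 76.3 and 80.2 CPM against 101, 95.5 and 93.0 CPM (0.30, SE 0.05, adjusted p = 3.57e-05). Neither held the pyrimidine stretch at its annotated start, as shown above. The row named Rpl36al, outside the name rule, was higher by 0.50 (SE 0.05, adjusted p = 5.87e-07). It lies on chromosome X, where RefSeq places the start of Rpl36a, so it may hold Rpl36a itself and not a paralogue. Rpl7l1, a nucleolar relative of Rpl7, did not pass (0.07, SE 0.04, adjusted p = 0.151), although its CPM were higher in every progesterone library (73.8, 70.8 and 74.5 against 70.2, 68.9 and 69.0), and it passed with upper quartile scaling (0.17, adjusted p = 0.00316). Rps4y2 did not pass either (-0.05, SE 0.06, adjusted p = 0.498), although its CPM were lower in every progesterone library (24.5, 23.9 and 24.8 against 25.5, 25.4 and 24.9). Rpl3l, the form that replaces Rpl3 in adult striated muscle, had 3 counts over the control and 5 over the progesterone libraries and was not tested, while Rpl3 had 865, 834 and 827 CPM against 1043, 1112 and 1029 CPM (0.33, SE 0.04, adjusted p = 6.76e-06).

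The members were also compared with one another. Scaled to their own sum, 9 of the 79 tested genes were higher, 13 were lower and 57 did not pass, where 65.1% of all genes were called on that scale, 13.9% higher and 51.2% lower. The 9 included Rps21 (0.36), Rpl23 (0.22), Rps2 (0.21), Rpl27a (0.18), Rpl7 (0.16), Rpl5 (0.16), Rpl14 (0.16) and Rpl22l1 (0.16). Among the 13 were the 3 paralogues that fell, Rps4y2 and Rpl7l1, and also the core proteins Rplp0 (-0.26), Rps12 (-0.23), Rpsa (-0.19), Rpl41 (-0.16), Rps18 (-0.16), Rps15a (-0.15), Rpl17 (-0.14) and Rpl32 (-0.14). On the usual scale Rpl32 was higher by 0.14 (adjusted p = 0.015), a call lost without control replicate 2 (adjusted p = 0.0839), control replicate 3 (adjusted p = 0.064) or progesterone replicate 3 (adjusted p = 0.056).

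Ribosomal protein genes have many near-identical copies in the genome, and the deposited table spread the reads of some proteins over several rows. Rps27a is the clearest case, with a row on chromosome 14 (113966611 to 113968268) and another on chromosome 5 (138628482 to 138629026), in the coordinates of the deposited table (rat build not given in the sources used here). Its row on chromosome 14 held 11652, 6553 and 3147 counts in control and 9319, 10635 and 3935 in progesterone libraries, and its row on chromosome 5 held 3002, 5904 and 9468 against 4971, 4249 and 11199. The rows went in opposite directions from library to library, and neither passed (0.34, SE 0.65, and 0.23, SE 0.63). Summed, the protein had 577, 535 and 552 CPM against 677, 701 and 656 CPM, without overlap, and passed at 0.29 (SE 0.04, adjusted p = 3.19e-05).

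Rps2 showed the same pattern with a pseudogene row, LOC108350502, which held 6572, 5794 and 5534 counts in control and 3213, 6666 and 6938 in progesterone libraries. It was low in progesterone library 1, the library in which the Rps2 row was high. Summed, Rps2 had 1012, 996 and 917 CPM against 1347, 1238 and 1241 CPM, and its log2 fold change went from 0.49 to 0.39 (SE 0.05, adjusted p = 5.44e-06). Rplp2, the third stalk protein, had only 112, 813 and 1274 counts on its own row in control and 99, 90 and 487 in progesterone libraries, against 2634, 2165 and 2103 and 2121, 2306 and 2208 on LOC498555. The own row's log2 fold change of -1.64 (SE 1.19) became -0.19 (SE 0.12, adjusted p = 0.212) over all rows of the protein, which did not pass.

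**Figure D4:**
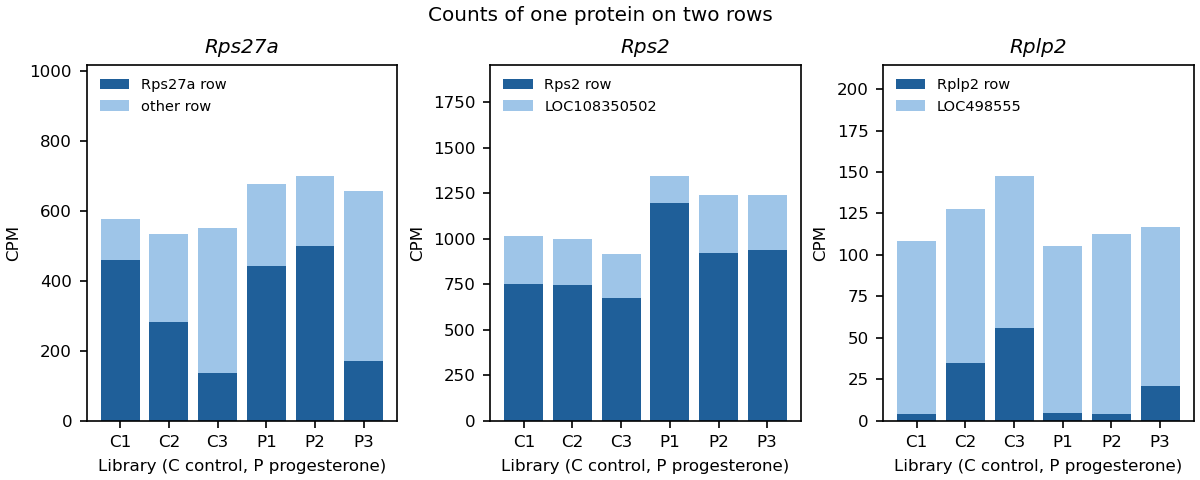
TMM-scaled CPM of the row used for Rps27a, Rps2 and Rplp2 (dark) and of its most counted second row for the same protein (light), stacked, in control (C) and progesterone (P) libraries 1 to 3. Over all rows of its protein, Rps27a stays at 535 to 577 CPM in control and 656 to 701 CPM in progesterone libraries while the rows drawn trade reads.

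Over the whole family, 119 other rows were described as the protein of a member, and 25 members had over 5% of their protein's counts on such rows, 15 of them at least 50%. Rpl9 was the extreme among tested genes, with 99.6% of its counts elsewhere. The row used, on chromosome 1, gave -0.03 (SE 0.22, adjusted p = 0.92). RefSeq places the start of Rpl9 on chromosome 14, where the row LOC100364457 held 62364 counts, so the row used may be a copy. Over all rows Rpl9 had 412, 399 and 388 CPM against 539, 558 and 499 CPM and rose by 0.41 (SE 0.05, adjusted p = 1.46e-06). Rps29 rose by 0.58 (SE 0.05, adjusted p = 1.3e-07) over all rows, at 238, 211 and 204 CPM against 329, 327 and 321 CPM. Rpl13a lost its call, from 0.32 (SE 0.06, adjusted p = 1.14e-04) to 0.07 (SE 0.05, adjusted p = 0.189). Its pseudogene row AABR07045322.1 was lower, at -0.21 (adjusted p = 0.0066). Rpl37 and Rpl39, not tested on the rows used, were higher over all rows by 0.21 (adjusted p = 0.00433) and 0.33 (adjusted p = 4.41e-04). With all rows summed, 84 members could be tested, and 62 were higher, 3 lower and 19 did not pass, where 63.2% of all genes were called, 31.3% higher and 31.9% lower. The groups separated upward in 62 and downward in 4 of the 84, beside 68.8% of all genes, 33.9% upward and 34.9% downward. Among the 59 tested members with at most 5% on other rows, 47 were higher and 3 lower. Paralogue rows that are members themselves, such as Rps10l1 and Rps18l1, were not counted as other rows of their parents. The 3 lower genes were such paralogue rows, so this set is not free of rows that may share reads. A sum adds reads of rows that may be transcribed on their own, such as the row named Rpl36al, which was counted with Rpl36a. That row and the RefSeq start of Rpl36a both lie on chromosome X, while the row used for Rpl36a lies on chromosome 10.

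Most members that did not pass had wide errors. Of the 17, 11 had a standard error of 0.1 or more, and 6 had a smaller one: Rplp0, Rps12, Rpsa, Rpl41, Rpl7l1 and Rps4y2. Among the wide ones, Fau, which fuses a ubiquitin-like protein to a small subunit protein, had 333, 248 and 151 CPM in control and 319.8, 389 and 372 CPM in progesterone libraries (0.56, SE 0.33, adjusted p = 0.212). Control library 1 again lay within the progesterone range. Rpl29 had 604, 459 and 548 CPM against 749, 547 and 749 CPM (0.34, SE 0.18, adjusted p = 0.175), and passed without progesterone replicate 2 (0.48, adjusted p = 0.0267). Rps9 had 46.0, 22.8 and 16.5 CPM against 22.4, 24.6 and 37.2 CPM, with 3 rows on the opposite strand overlapping it. Rps6, the substrate of S6 kinase, had 26.5, 19.6 and 28.1 CPM against 26.9, 17.1 and 26.2 CPM on the row used. Another 38.0% of the counts described as this protein lay on LOC100911372, which was higher (0.32, SE 0.10, adjusted p = 0.0105). Summed, Rps6 did not pass (0.07, SE 0.16, adjusted p = 0.733). Rpl35a had 169 counts on the row used, with 85.1% of its protein's counts on other rows, and did not pass (-0.03, SE 0.26). Rpl8 was higher by 0.33 (adjusted p = 0.0141) from 1319 counts on its own row, but not without control replicate 2 (0.30, adjusted p = 0.0608). Of the 7 genes not tested, Rpl10a, Rpl23a and Rpl30l1 had 0 counts on the row used in every library. For Rpl10a and Rpl23a, 100% of the counts described as the protein lay on other rows. With those rows summed neither passed (0.36, SE 0.32, adjusted p = 0.386, and -0.07, SE 0.53, adjusted p = 0.926).

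Genes that act around the ribosome were taken from 4 lists, whose counts stand beside 63% of all genes tested being called, 31.2% higher and 31.8% lower. Of 22 tested translation factors whose mRNAs also carry TOP stretches, 15 were higher and 2 lower (median 0.27). Eif2s3, a subunit of the initiation factor that delivers the first tRNA, rose by 0.67 (SE 0.04) from 183 to 293 CPM, Eef1b2, an exchange factor for elongation factor 1, by 0.67 from 203 to 324 CPM, and Nap1l1, a histone chaperone, by 0.57. Pabpc1, the poly(A)-binding protein, fell by 0.38 on the log2 scale (SE 0.04, adjusted p = 8.26e-07). Eef1a1, the most counted of the list at 5724 CPM in progesterone libraries, did not pass (0.05, SE 0.04, adjusted p = 0.292).

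Of 30 tested factors that assemble and export ribosomal subunits, 15 were higher and 3 lower (median 0.15), beside 31.2% higher and 31.8% lower of all genes tested. The share called in either direction was close to the 63% of all genes, but the calls were mostly upward. Rrs1, which helps bring the 5S particle with Rpl5 and Rpl11 into the large subunit, rose by 0.76 (SE 0.06) from 21.3 to 36.0 CPM, and Rrp12, an export factor of the small subunit, by 0.66 (SE 0.07). Eif6, which keeps the subunits apart until the large subunit is mature, fell by 0.54 on the log2 scale from 101 to 69.9 CPM, and Nop53 by 0.43. Of 18 tested mTORC1 and TOP mRNA regulators, 6 were higher and 5 lower (median 0.02), again close to the 63% called in either direction. Larp1 was lower (-0.14, SE 0.04, adjusted p = 0.011), Larp4b was lower (-0.33, SE 0.05), Cnbp, which binds TOP mRNAs, was higher (0.32, SE 0.04), and Mtor did not pass (0.06, adjusted p = 0.353). Of 9 tested genes of ribosome rescue and storage, 6 were higher and 2 lower, led by Ifrd2, which holds ribosomes inactive, at 0.79 (SE 0.06, adjusted p = 1.88e-08).

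**Figure D5:**
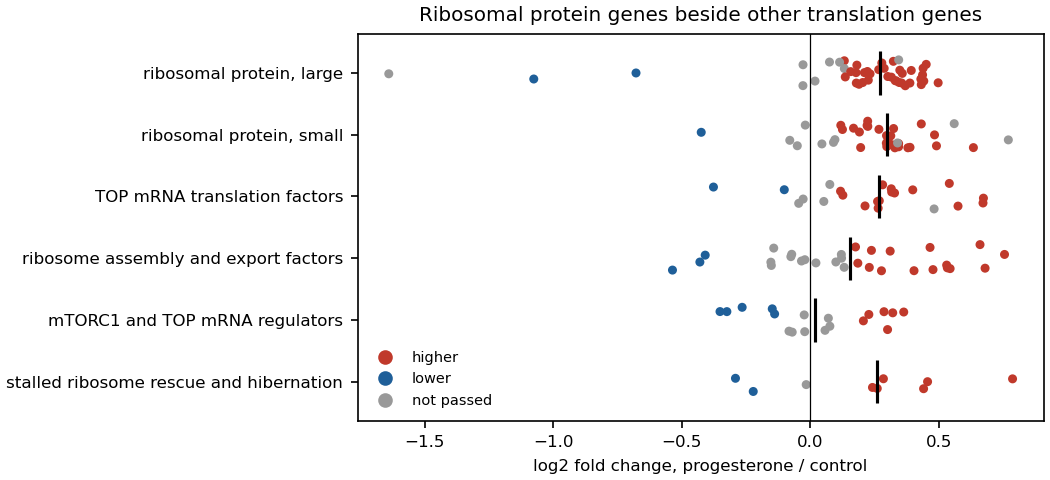
log2 fold change, progesterone over control, from edgeR on TMM-scaled counts for the tested genes of each subunit and of 4 related lists, coloured by call, with a black line at each list's median. The ribosomal protein genes and the TOP translation factors centre on 0.27 to 0.30 and the mTORC1 regulators on 0.02. Scaled to the summed ribosomal protein counts the subunit medians become -0.0030 and 0.021.

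The libraries held 21156793 to 25376220 counts. All 8 cardiomyocyte markers were detected and tested (2 higher, 4 lower, summed 13465 to 14099 CPM in control and 14264 to 16486 in progesterone libraries), and markers of other cell types were detected too. Fibroblast markers summed to 27392 to 28477 CPM against 36783 to 39744 (3 higher and 3 lower of 7), smooth muscle and pericyte markers to 1957 to 2330.0 against 4661 to 5210 (6 higher of 6), endothelial markers to 124 to 166 against 80.4 to 115 (2 lower of 5), and leukocyte markers to 28.0 to 37.6 against 53.9 to 62.3 (3 higher of 4). Markers of cycling cells summed to 302 to 328 CPM in control and 898 to 926 CPM in progesterone libraries, with 6 of 6 higher. These counts of calls stand beside 63% of all genes tested being called, 31.2% higher and 31.8% lower. Erythroid markers stayed under 1 CPM in sum, with Hbb at 0. The cardiomyocyte, fibroblast, smooth muscle, endothelial, leukocyte and cycling sums differ between the same groups as the ribosomal protein genes, and their part in the result was not tested.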

How the data were processed

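RNA was extracted with Trizol, enriched for mRNA and made into libraries with the Illumina TruSeq RNA kit, per the labels' protocols. The authors deposited a table of whole-number counts per gene and a table of FPKM, counts divided by row length and library size, for the same 6 libraries. Bowtie 0.12.2 and mm8, a mouse build, are listed in the submitters' processing notes, although the rows carry rat Ensembl identifiers. The rat build, annotation, counter, use of strand and handling of reads that match several rows were not given in the sources used here. Of the members, 7 overlap a row on the opposite strand, and in 3 of those with counts (Rps19l2, Rps4y2 and Rps9) that row held over 5% as many. Without strand such reads cannot be told apart.

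Counts were filtered with filterByExpr (minimum count 10, minimum total 15), scaled by TMM (factors 0.984 to 1.01) and tested with edgeR 4.0.16 (quasi-likelihood, robust) in R 4.3.3, with Benjamini-Hochberg adjustment over all 15075 genes and a threshold of 0.05. Standard errors were taken as the fold change divided by the square root of F. The biological coefficient of variation was 9.04%. The fits were tested on simulated data. Alternatives used DESeq2 1.42.0, limma 3.58.1 on log2(FPKM + 1) and log2(FPKM + 0.1), other scalings and filters, rows of the same protein summed, a replicate term, and each library left out. Within groups library correlations were 0.992 to 0.993, and no replicate pair agreed within counting error (chi-square over degrees of freedom 5.50 to 9.64).

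Genes named are, per subunit, the 5 highest and 5 lowest fold changes and the 3 highest and 3 lowest FPKM, plus the role and paralogue lists and up to 4 genes of each related list; others were chosen after their values were seen, and a few that the rule names are not reported here. The members and lists were chosen with earlier results of these data known. Promoter sequences are from RefSeq (GRCr8).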

Additional observations from a re-analysis of the deposited data

How the results depend on the processing

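The count of ribosomal protein genes called higher was 57 to 60 with RLE scaling, library totals, either filter, DESeq2 and limma on either log scale. In the main fit 31.2% of all genes tested were called higher and 31.8% lower. The shares over all genes in these alternative fits, with a replicate block and with a library left out are not reported here. The replicate numbers of the titles did not pair the libraries (correlations of same-numbered deviations 0.0758, 0.0232 and 0.0141), and with a replicate block 60 were higher and 3 lower, with Rpl29 and Rpl41 gaining and Rps15a losing the call. Leaving out each library gave 52 to 60 higher and 2 to 3 lower over all members, 31 to 35 and 1 to 2 in the large and 21 to 25 and 1 in the small subunit, medians of 0.25 to 0.31, 0.24 to 0.30 and 0.25 to 0.33, shares of 2.93% to 3.08% in control and 3.59% to 3.65% in progesterone, and subunit ratios of 1.31 to 1.36 and 1.27 to 1.30. In the large subunit 1 gene was lower, not 2, with the filter of 1 CPM in 3 libraries and with DESeq2, where Rpl39l was filtered out or missed the threshold (adjusted p = 0.0586).

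Upper quartile scaling raised the medians to 0.38 for all members, 0.37 for the large and 0.39 for the small subunit, as it raised all genes by 0.10. Scaling to the summed ribosomal protein counts centres the members by construction, with medians of 0.011, -0.0030 and 0.021. It left 9 higher and 13 lower (6 and 7 large, 3 and 6 small), beside 13.9% higher and 51.2% lower of all genes tested. It turned Rplp0 to -0.26, Rps12 to -0.23, Rpl7l1 to -0.20, Rpsa to -0.19, Rpl41 and Rps18 to -0.16, Rps15a to -0.15, Rpl17 and Rpl32 to -0.14, Rpl28 to -0.12, Rps27 to -0.11, Rpl10 and Rpl19 to -0.10, Rpl24 to -0.094, Rpl4 to -0.087, Rps28 to -0.083, Rps3 to -0.080, Rpl6 to -0.071, Rpl27 to -0.065, Rps23 to -0.054, Rps14 and Rps3a to -0.052, Rpl30 to -0.051, Rpl35 to -0.050, Rpl37a to -0.042, Rpl18 to -0.0098 and Rps10 to -0.0096. Summing the rows of each protein turned Rpl9 to 0.41 and raised the shares to 3.34% and 4.0%, and dividing by nuclear protein-coding counts gave 3.17% for control and 3.88% for progesterone. With members of at most 5% on other rows, chosen after seeing the data, 47 of 59 tested were higher and 3 lower. Over all genes tested 31.2% were higher and 31.8% lower in the same fit.

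Depth limits the rows with few counts, such as Rpl39l and Rpl35a, and the spread of reads over copies limits single rows such as that of Rps27a. With 3 libraries a group, the smallest change called higher was 0.12 on the log2 scale.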

Other observations

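Some ribosomal proteins are carried in the table under names that the rule does not match. A row described as L22-like, LOC100360057, had 135, 134 and 116 CPM in control and 129.9, 141 and 135 CPM in progesterone libraries and did not pass by edgeR (log2 fold change 0.07, SE 0.06, adjusted p = 0.279), beside its paralogue Rpl22l1 at 0.43. A row described as similar to S13, LOC684988, had 69.8, 72.0 and 60.6 CPM against 79.3, 82.9 and 82.4 CPM and was higher by 0.27 (SE 0.06, adjusted p = 8.62e-04). An unnamed assembled locus described by the S26 family domain had 421, 383 and 389 CPM against 490, 503 and 493 CPM and was higher by 0.32 (SE 0.04, adjusted p = 1.42e-05).

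Replicate spread was wider on rows that share a protein. The median coefficient of variation of CPM over the 3 control libraries was 4.80% for the 59 tested members with at most 5% of their counts on other rows and 7.08% for the 20 others, and 2.84% against 7.32% over the progesterone libraries. With all rows of a protein summed, the 20 others were at 5.95% and 3.45%. Rps19, Fau and Rps9 kept wide spreads with the rows of the same description added.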
